A study of Homo sapiens with 4 samples.

Results

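The short arm of chromosome 5 was examined in 4 genome-wide maps of dimethylated histone H3 lysine 9 (H3K9me2) from K562 cells. Its members are all listed peaks on chromosome 5 that end at or before position 46400000 of the human assembly hg19. They number 21335 of the 1000000 peaks in the 4 lists, with 4687 and 4967 in gCUX1 replicates 1 and 2, against 5903 and 5778 in gHPRT replicates 1 and 2. The arm measures 46.4 Mb. Within it, the gene-poor cadherin stretch, chr5:19000001-32000000, measures 13 Mb and was set against the other 33.4 Mb, called here the rest of the arm. By peak midpoint the stretch held 1376 and 1387 peaks in the gCUX1 libraries, against 1647 and 1588 in the gHPRT libraries. The arm was selected from earlier results of the same libraries, in which 6 of its 1-Mb windows had passed a genome-wide fit as lower in gCUX1. Coverage of the arm in gCUX1 against gHPRT is therefore a description here and has no test.

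K562 is an established human myeloid leukemia line, grown in RPMI medium with serum and antibiotic. Its genome is aneuploid as background, and copy number along the arm was not analysed here. The gCUX1 cells are labelled as a knock-out of CUX1, a homeodomain transcription factor, although the names of their files carry a knockdown tag. The gHPRT cells, which carry a guide named for the housekeeping gene HPRT, are the control, and the file names of control replicate 1 carry the added tag "sub". All 4 libraries came from CUT&RUN, in which a nuclease tethered to an antibody on permeabilized cells releases the DNA beside the bound histone, with the same H3K9me2 antibody. Each group had 2 libraries. Nothing in the labels says whether these were separate cultures, whether the cells were clones, or whether equal numbers share a batch, so the spread between replicates may be technical. An exact two-sided permutation test of 2 against 2 libraries cannot give a p below 0.333.

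H3K9me2 is written mainly by the paired methyltransferases G9a and GLP, encoded by EHMT2 and EHMT1. It is known for covering broad blocks of silent, gene-poor chromatin, often at the nuclear lamina, as shallow domains and not as sharp summits. The short arm of chromosome 5 holds a gene-poor stretch. In the gene order of assembly GRCh38.p14, only 6 named protein-coding genes run from CDH18 to CDH6: CDH18, CDH12, PRDM9, CDH10, CDH9 and CDH6. All of them but PRDM9 are type II classical cadherins, calcium-dependent adhesion molecules. PRDM9 is the meiotic histone methyltransferase that places recombination hotspots. On the tip side, 75 protein-coding genes precede CDH18, among them TERT, the catalytic subunit of telomerase, and its neighbour CLPTM1L. On the centromere side, the next gene after CDH6 is DROSHA, the nuclease that starts microRNA processing. Where individual genes lie relative to the peaks was not analysed here, since the gene order is from a later assembly than the peaks.

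Every list held 250000 peaks genome-wide, but the lists ended at different strengths. The weakest listed peak had a −log10 p of 1.49 and 1.35 in the gCUX1 libraries, against 1.25 and 1.27 in the gHPRT libraries, and the lists covered 423 and 585 Mb in gCUX1, against 693 and 679 Mb in gHPRT. Peak calls are the authors', made in each library separately, and the sources used here give no read depth. On the arm, gCUX1 replicate 2 and gHPRT replicate 2 each had 1 peak with a q of at most 0.05, and the other libraries had 0. The arm is thus described from broad regions of weak enrichment. The median fold enrichment of its peaks was 1.85 ± 0.134 in gCUX1 and 1.74 ± 0.0497 in gHPRT (SD, n = 2 each).

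As deposited, a smaller share of the arm lay under H3K9me2 peaks in both gCUX1 libraries than in both gHPRT libraries. Peaks covered 17.7% and 26.2% of the arm in gCUX1 replicates 1 and 2, against 35.3% and 35.7% in gHPRT replicates 1 and 2. The means were 21.97% ± 6.03 in gCUX1 and 35.5% ± 0.232 in gHPRT (SD, n = 2 each), a difference of -13.5 points and a ratio of 0.619. The groups did not overlap, and the gCUX1 libraries lay well apart while the gHPRT libraries nearly coincided. In length, 10.2 ± 2.80 Mb was covered in gCUX1 and 16.5 ± 0.108 Mb in gHPRT. This level depended on where the lists ended. With 1 limit for all libraries, a −log10 p of at least 1.49, the arm was covered to 17.7% and 14.8% in gCUX1, against 15.5% and 16.8% in gHPRT, and the groups overlapped. With 1 limit on −log10 q, 0.0335, it was covered to 12.9% and 18.9% in gCUX1, against 7.78% and 19.4% in gHPRT. The groups overlapped there too, the means were 15.9% in gCUX1 and 13.6% in gHPRT, and gHPRT replicate 1 was far below the other libraries. With each list trimmed from its weak end to the same covered length of 423 Mb, the means were 18.2% in gCUX1 and 23.3% in gHPRT.

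Set against the other chromosome parts of the same library, the arm was less enriched in gCUX1 under every reading of the lists that was tried. The share covered on the arm, divided by that on the other parts, was 1.19 and 1.27 in the gCUX1 libraries, against 1.45 and 1.5 in the gHPRT libraries. On the log2 scale these ratios averaged 0.30 ± 0.07 in gCUX1 and 0.56 ± 0.03 in gHPRT (SD, n = 2 each), a difference of -0.26. The difference was -0.38 with the limit on −log10 p, -0.33 with that limit on −log10 q, -0.37 at equal covered length and -0.28 with gaps of up to 2000 bp filled. In these 5 readings both gCUX1 libraries stayed below both gHPRT libraries. This ratio was added with the values in view, and it rests on the contrast that selected the arm.

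The arm's rank among chromosome parts differed between the groups. Across 41 parts, cut at the large gaps in the lists that mark centromeres, the short arm of chromosome 5 ranked 9 by mean coverage in gCUX1 and 4 in gHPRT. Its ratio of 0.619 was the third lowest, after the long arms of X (0.254) and 20 (0.286), and lay next to the long arm of 7 (0.632). The sides of chromosome 5 were also set against each other. The long arm was covered to 18.6% and 26.5% in gCUX1, against 29.7% and 29.6% in gHPRT. Short-arm coverage over long-arm coverage was thus 0.950 and 0.989 in the gCUX1 libraries, against 1.19 and 1.21 in the gHPRT libraries. In log2 the short-over-long ratio averaged -0.04 in gCUX1 and 0.26 in gHPRT, a difference of -0.31. This difference was -0.42 with the limit on −log10 p, -0.42 with that on −log10 q and -0.39 at equal covered length. Among the 18 chromosomes with both sides measured, chromosome 5 had the fourth largest change in this ratio by size. The larger changes, of X (1.88), 20 (1.68) and 9 (0.40), went the other way. Of the 7 chromosomes whose ratio was lower in gCUX1, chromosome 5 had the largest change.

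**Figure D1:**
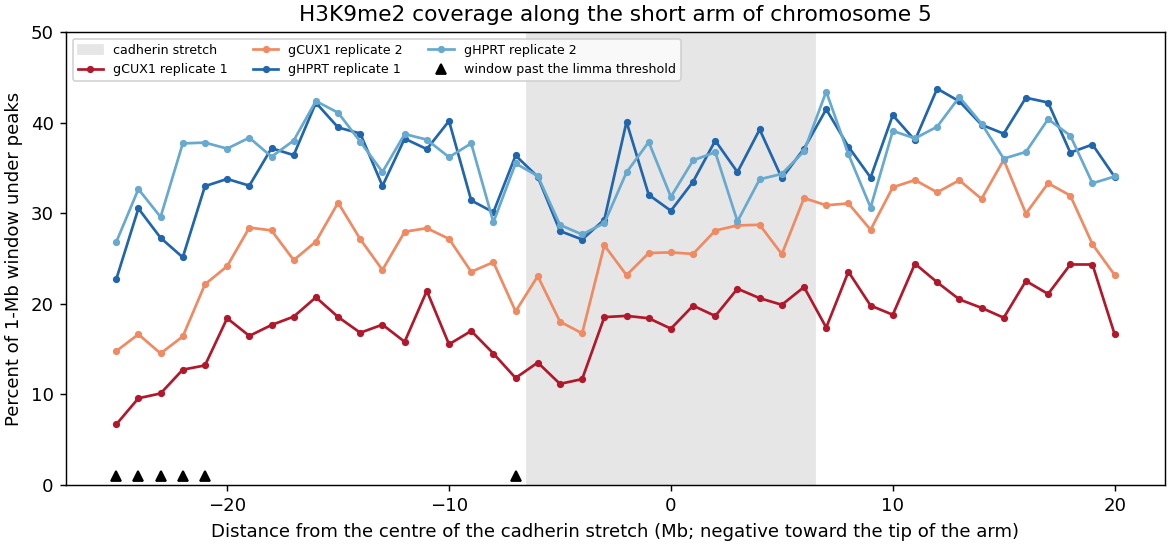
Percent of each 1-Mb window under H3K9me2 peaks along the short arm of chromosome 5, against distance in Mb from the centre of the cadherin stretch (grey), with 1 line per library. Both gCUX1 lines run below both gHPRT lines in all 46 windows, and triangles mark the 6 windows past the limma threshold, 5 of them at the tip.

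In the lists as deposited, the difference was spread along the whole arm and not gathered in a few places. In 46 of 46 windows of 1 Mb, both gCUX1 libraries were below both gHPRT libraries, where 63.8% of all 2807 windows genome-wide showed this. The same held for 13 of 13 windows of the stretch and 33 of 33 of the rest. The median window difference was -14.0 points on the arm and -6.33 points over all windows, and the median ratio was 0.627 on the arm and 0.747 over all windows. Ratios on the arm ran between 0.414 and 0.791. This spread depended on where the lists ended. With 1 limit on −log10 p, the ratio of gCUX1 to gHPRT means was 0.721 in the first 5 Mb and 1.04 over the other arm. In the genome-wide limma fit of the lists as deposited, 28 of 46 windows of the arm had an unadjusted p under 0.05, against 482 of all 2807. With Benjamini-Hochberg adjustment, 6 windows of the arm passed an adjusted p of 0.05 as lower in gCUX1 (4.1% of all windows) and 0 as higher (0.0713% of all windows). These calls are the ones the arm was selected on, so nothing is read from their number.

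Of the 6 windows, 5 make up the first 5 Mb at the tip of the arm, and the sixth abuts the cadherin stretch. The outermost window, chr5:1-1000000, was covered to 6.66% and 14.8% in gCUX1, against 22.7% and 26.8% in gHPRT. The next, chr5:1000001-2000000, had 9.55% and 16.6% in gCUX1, against 30.5% and 32.7% in gHPRT, and its ratio of 0.414 was the lowest on the arm. In chr5:2000001-3000000 coverage was 10.1% and 14.5% in gCUX1, against 27.3% and 29.6% in gHPRT. Within these windows even the higher gCUX1 library stayed below the lower gHPRT library by several points. The window chr5:3000001-4000000 had 12.7% and 16.4% in gCUX1, against 25.1% and 37.7% in gHPRT, with the gHPRT libraries far apart. The window chr5:4000001-5000000 had 13.2% and 22.1% in gCUX1, against 33.0% and 37.8% in gHPRT. The sixth, chr5:18000001-19000000, showed the largest difference of the 6, -20.5 points, with 11.8% and 19.2% in gCUX1, against 36.4% and 35.5% in gHPRT. None of these calls lay in the stretch. Its first window, chr5:19000001-20000000, did not pass, with 13.5% and 23.05% in gCUX1, against 34.0% and 34.1% in gHPRT. The calls depended on which libraries were kept, and were lost without either gHPRT library. The median window difference on the arm was -9.32 points without gCUX1 replicate 1, against -2.98 over all windows. Without gCUX1 replicate 2 it was -18.2 points, against -9.93 over all windows. Without gHPRT replicate 1 it was -13.7 points (-6.26 over all windows), and without gHPRT replicate 2 -13.8 points (-6.32 over all windows).

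The tip of the arm stood apart from the other arm more in gCUX1 than in gHPRT. The first 5 Mb was covered to 10.4% and 16.9% in gCUX1, against 27.7% and 32.9% in gHPRT, and the other arm to 18.6% and 27.4% in gCUX1, against 36.2% and 36.0% in gHPRT. The mean ratio of gCUX1 to gHPRT was 0.451 at the tip and 0.636 elsewhere on the arm. The log2 ratio of tip to other arm was -0.83 and -0.70 in the gCUX1 libraries, against -0.39 and -0.13 in the gHPRT libraries, a difference of -0.51. This difference was -0.51 with the limit on −log10 p, -0.82 with that on −log10 q, -0.42 at equal covered length and -0.51 with gaps filled, and the groups stayed apart in all 5 readings. With the limit on −log10 p the tip was at 10.2% ± 0.381 in gCUX1 and 14.1% ± 2.06 in gHPRT, while the other arm was at 17.01% ± 2.22 in gCUX1 and 16.4% ± 0.805 in gHPRT (SD, n = 2 each). The tip was picked after its windows had been seen, so these values describe it. The same ratio was computed for the outer 5 Mb of 40 chromosome parts of at least 15 Mb. The median difference was -0.02, 21 of the 40 were below 0, and the tip of the short arm of chromosome 5 had the third lowest, after the long arms of X and 20.

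Beyond the tip, the ratio of gCUX1 to gHPRT in the lists as deposited was closer to 1 toward the centromere. In successive bins of 5 Mb the ratio of mean coverage, gCUX1 over gHPRT, was 0.451, 0.598, 0.606, 0.551, 0.599, 0.684, 0.683, 0.667 and 0.701, and it was 0.585 in the last, shorter bin. Median peak width followed the same course, with a ratio of 0.543 in the first bin, 0.602 in the fourth and 0.868 in the ninth. Over all 46 windows of 1 Mb, the first 5 Mb included, coverage rose with distance from the tip. The Spearman correlation was 0.67 and 0.63 in gCUX1, against 0.50 and 0.13 in gHPRT. These values thus include the low coverage of the tip, and none was computed without it. A rank correlation gives the order of the windows and not the size of the rise. Neighbouring windows are not independent, so the correlations carry no p.

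**Figure D2:**
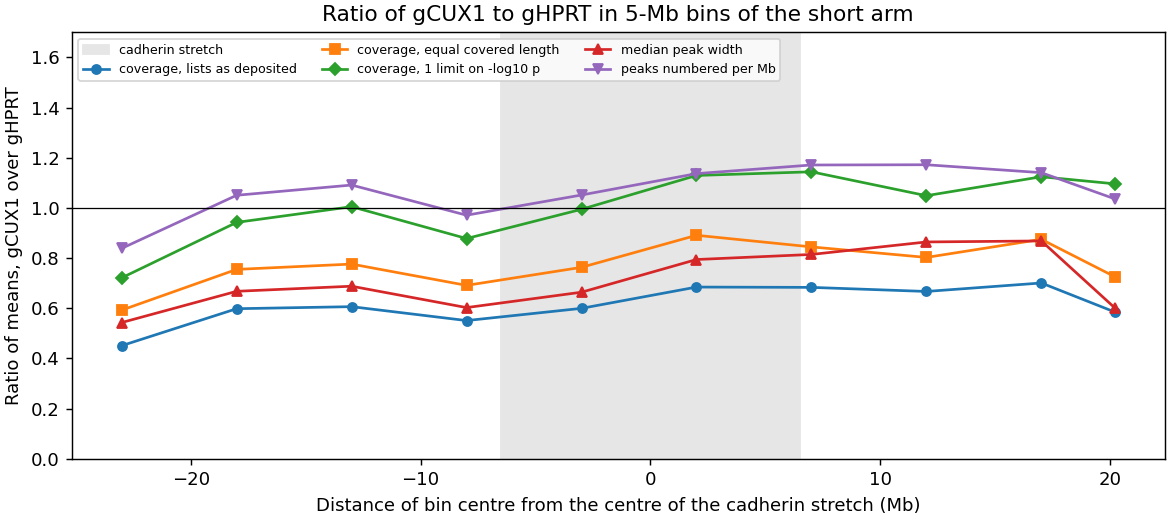
Ratio of gCUX1 to gHPRT means in successive 5-Mb bins of the short arm, for coverage under 3 readings of the lists, median peak width and numbered peaks per Mb, against distance in Mb from the centre of the cadherin stretch (grey). All 5 lines are lowest in the first bin, where the ratio of deposited coverage is 0.451, and only the lines for the limit on −log10 p and for numbered peaks pass 1.

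The cadherin stretch was covered somewhat less than the rest of the arm in the gHPRT libraries, and its ratio of gCUX1 to gHPRT was slightly higher. In the stretch, coverage was 17.8% and 25.1% in gCUX1, against 33.6% and 33.1% in gHPRT, with means of 21.5% ± 5.18 and 33.4% ± 0.379 (gCUX1, gHPRT; SD, n = 2 each). In the rest of the arm it was 17.7% and 26.7% in gCUX1, against 36.0% and 36.7% in gHPRT, with means of 22.2% ± 6.37 and 36.3% ± 0.470. The ratio of means was 0.644 in the stretch and 0.610 in the rest. Gene-poor chromatin is where the mark is classically broad, yet the stretch was below the rest in 3 of the 4 libraries, all but gCUX1 replicate 1. The log2 ratio of stretch to rest was 0.01 and -0.08 in gCUX1, against -0.10 and -0.15 in gHPRT, a difference of 0.09 with a gap between the groups smaller than the spread within either. The size of this difference depended on the regions compared. It fell to 0.02 when the borders were moved outward by 1 Mb and to 0.03 without the first 5 Mb of the arm. With the borders moved inward by 1 Mb it was 0.09. It was 0.11 with the limit on −log10 p and 0.10 at equal covered length, where the groups overlapped. With the limit on −log10 q it was 0.10 and with gaps filled 0.11, and there the groups stayed apart. A separate response of the stretch was therefore not detectable with these libraries.

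**Figure D3:**
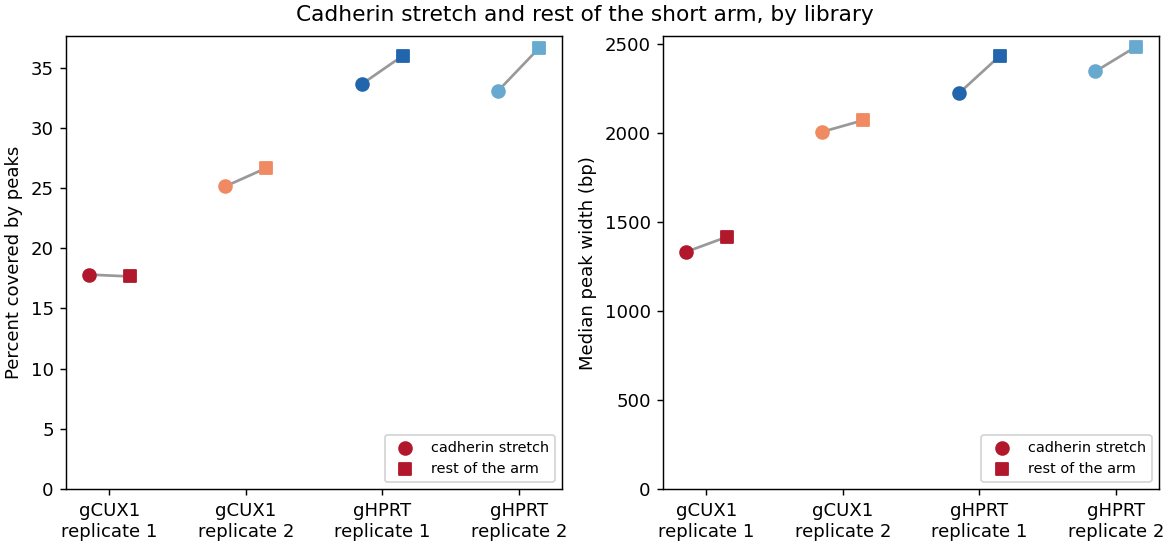
Percent covered (left) and median peak width in bp (right) for the cadherin stretch (circles) and the rest of the arm (squares), with 1 joined pair per library and both axes starting at 0. In each library the pair lies close together, and the gCUX1 libraries are lower than the gHPRT libraries in both panels.

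Peaks of the stretch were narrower than those of the rest in 4 of 4 libraries. Their median width was 1333 and 2009 bp in gCUX1, against 2225 and 2348.5 bp in gHPRT, while in the rest it was 1418 and 2074 bp in gCUX1, against 2436 and 2488.5 bp in gHPRT. The difference between the groups was -616 bp in the stretch and -716 bp in the rest, and without gCUX1 replicate 1 it was -278 and -388 bp. Peaks of at least 5 kb made up 2.83% and 6.13% of the stretch's peaks in gCUX1, against 11.1% and 10.3% in gHPRT. In the rest they made up 3.47% and 9.53% in gCUX1, against 13.0% and 14.2% in gHPRT. Peak density did not separate the regions: the stretch had 106 and 107 peaks per Mb in gCUX1, against 127 and 122 in gHPRT, and the rest had 99.1 and 107 in gCUX1, against 127 and 125 in gHPRT.

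Within the stretch, coverage was uneven and lowest on its tip side. The window chr5:20000001-21000000 was covered to 11.1% and 18.0% in gCUX1, against 28.0% and 28.7% in gHPRT, and the next, chr5:21000001-22000000, to 11.7% and 16.7% in gCUX1, against 27.1% and 27.7% in gHPRT. These had the lowest ratios of the stretch, 0.514 and 0.519. On the other side, chr5:28000001-29000000 was covered to 21.7% and 28.7% in gCUX1, against 34.5% and 29.1% in gHPRT, and its ratio of 0.791 was the highest on the arm. In that window gCUX1 replicate 2 and gHPRT replicate 2 nearly met. At 100 kb, chr5:20700001-20800000 had the stretch's lowest gCUX1 values, 1.85% and 0.914%.

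The lower coverage of the arm came with narrower peaks and, in the lists as deposited, fewer of them. Narrower peaks were not particular to the arm. With 250000 peaks in every list, the lists covered 423 and 585 Mb genome-wide in gCUX1, against 693 and 679 Mb in gHPRT. Median width on the arm was 1387 and 2054 bp in gCUX1, against 2387 and 2449 bp in gHPRT, and peak density was 101 and 107 per Mb in gCUX1, against 127 and 125 per Mb in gHPRT. Wide peaks differed most. Peaks of at least 5 kb numbered 154 and 426 in gCUX1, against 735 and 761 in gHPRT, and covered 0.935 and 2.78 Mb in gCUX1, against 4.91 and 5.14 Mb in gHPRT. The gCUX1 libraries differed widely from each other here, and both were below both gHPRT libraries. The widest peak on the arm measured 12461 and 12580 bp in gCUX1, against 16812 and 18680 bp in gHPRT. The narrowest peak in the list also differed, at 263 and 339 bp in gCUX1, against 362 and 369 bp in gHPRT. Its part in the widths was not tested.

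Serial numbers in the peak names ran past the number of listed peaks. They were read as another count, of peaks before the lists were shortened, although the labels do not state a shortening. On chromosome 5 the numbers rose with position in 100% of steps, so gaps in them were taken as peaks that were numbered and not listed. By these numbers the arm had 185 and 165 peaks per Mb in gCUX1, against 165 and 161 in gHPRT, means of 175 ± 14.0 and 163 ± 2.53 (gCUX1, gHPRT; SD, n = 2 each). Of the numbered peaks, 54.7% and 64.9% were listed in gCUX1, against 77.1% and 77.1% in gHPRT. The deposited density was thus lower in gCUX1 while the numbered density was not. The first 5 Mb differed from this: it had 128 and 132 numbered peaks per Mb in gCUX1, against 158 and 151 in gHPRT, a ratio of 0.839, while the other bins had ratios between 0.971 and 1.17.

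**Figure D4:**
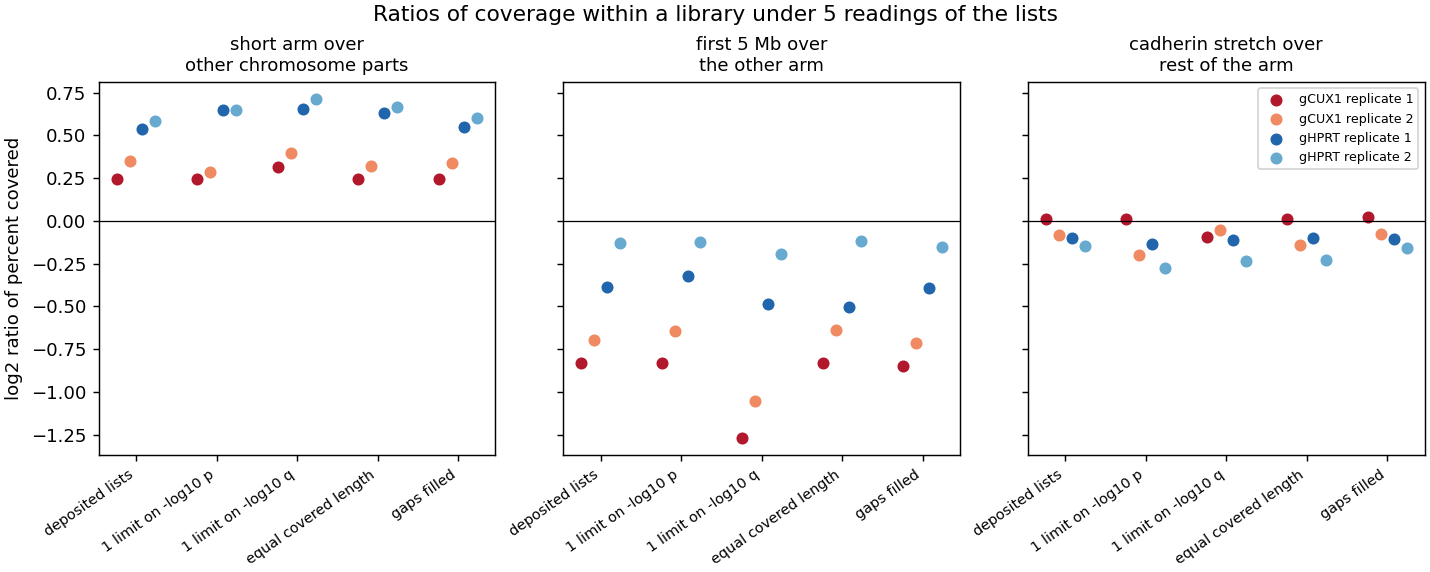
Log2 ratio of percent covered within each library for the short arm over other chromosome parts, the first 5 Mb over the other arm, and the cadherin stretch over the rest of the arm, under 5 readings of the lists, with 1 point per library. The gCUX1 points lie below the gHPRT points in all 5 readings of the left and middle panels, and mix with them in part of the right panel.

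At finer scale, 344 of 463 windows of 100 kb on the arm (74.3%) had both gCUX1 libraries below both gHPRT libraries, where 43.3% of all 27532 windows did. Both gCUX1 libraries were above both gHPRT libraries in 3 windows (0.648%), where 4.97% of all windows were. In the stretch 87 of 130 windows were below and 0 above, and in the rest 257 of 333 were below and 3 above. The limma fit with Benjamini-Hochberg adjustment called 1 window of the arm lower in gCUX1 (0.0981% of all windows) and 0 higher. At an unadjusted p under 0.05 were 178 of 463 windows of the arm, against 4124 of all 27532. No reading is made of these counts, since the arm was selected on the contrast.

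That window, chr5:2000001-2100000, lay in the first 5 Mb and had the largest difference of the arm, -32.3 points, with 2.24% and 6.48% in gCUX1, against 25.3% and 47.9% in gHPRT. The next largest lay in the stretch: chr5:31200001-31300000 had 16.2% and 14.4% in gCUX1, against 49.0% and 44.0% in gHPRT. A window of nearly the same difference, chr5:35000001-35100000, had 15.8% and 17.03% in gCUX1, against 49.3% and 45.9% in gHPRT. In both, the replicates of a group lay within about 5 points of each other. The window chr5:9000001-9100000 had 15.9% and 13.0% in gCUX1, against 43.5% and 46.6% in gHPRT, and chr5:29900001-30000000, in the stretch, had 15.7% and 19.0% in gCUX1, against 42.5% and 51.8% in gHPRT. Windows covered to at least 50% numbered 0 and 0 in the gCUX1 libraries, against 15 and 16 in the gHPRT libraries.

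The 3 windows that were higher in gCUX1 all lay between the stretch and the centromere. In chr5:34300001-34400000 coverage was 23.5% and 23.9% in gCUX1, against 18.4% and 13.8% in gHPRT, a difference of 7.58 points. In chr5:44700001-44800000 it was 33.8% and 29.9% in gCUX1, against 27.1% and 23.7% in gHPRT, and in chr5:36200001-36300000 it was 36.3% and 35.1% in gCUX1, against 31.5% and 34.0% in gHPRT. Their differences were well under those of the windows named as lower.

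**Figure D5:**
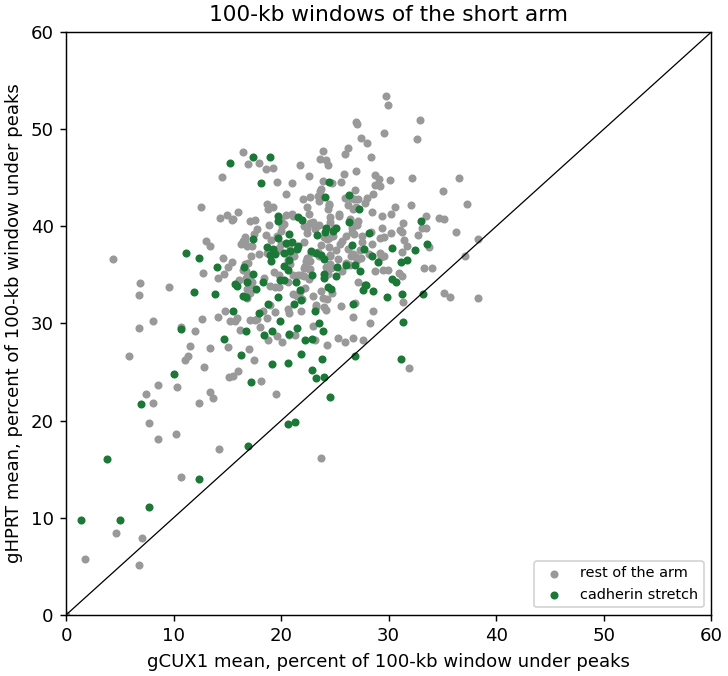
Mean percent covered in gCUX1 (x axis) and gHPRT (y axis) for the 100-kb windows of the short arm, with windows of the cadherin stretch in green, the rest in grey, and a line of equality. Most windows lie above the line, 344 of 463 with both gCUX1 libraries below both gHPRT libraries, and the green points lie among the grey ones.

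The 4 libraries seldom marked the same bases of the arm. Peaks of all 4 libraries overlapped over 0.784 Mb, 1.69% of the arm, which was 1.35% of the stretch and 1.82% of the rest, and 30.8% of the arm lay under no peak in any library. The bases shared by a pair, divided by the bases covered in either, came to 0.163 for the gCUX1 pair and 0.266 for the gHPRT pair, and to between 0.169 and 0.231 for pairs across the groups. The shared length was 1.33 times the product of the covered shares for the gCUX1 pair, 1.18 times for the gHPRT pair and between 1.23 and 1.24 times for pairs across the groups. Replicates therefore shared little beyond what their covered lengths give, and the position of a single peak has low precision. Both gCUX1 and neither gHPRT library covered 0.753 Mb, against 3.36 Mb for both gHPRT and neither gCUX1 library. These lengths were not corrected for the covered length of the arm, which was larger in both gHPRT libraries.

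Runs covered in all 4 libraries were many and short. The longest run covered in all 4 was chr5:24071193-24075580, 4388 bp inside the cadherin stretch, followed by chr5:148891-153001, 4111 bp near the tip, and chr5:14031472-14035515, 4044 bp. Of 971 such runs, 280 reached 1 kb, with a median of 623 bp. The longest stretch with no peak in any library, apart from the end of the measured arm, was chr5:21457883-21581229, 123347 bp, also inside the cadherin stretch, and the next was chr5:34159000-34251732, 92733 bp.

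By −log10 p, the strongest single peak of each library lay outside the stretch. In gCUX1 replicate 2 it was chr5:43007637-43010017, 2381 bp with the authors' fold enrichment of 2.70 and a −log10 p of 4.76, and in gCUX1 replicate 1 chr5:10319606-10320048, 443 bp with a fold of 3.03 and a −log10 p of 3.80. In gHPRT replicate 2 it was chr5:43121150-43122383, 1234 bp with a fold of 2.67 and a −log10 p of 4.70, and in gHPRT replicate 1 chr5:45167138-45168015, 878 bp with a fold of 2.815 and a −log10 p of 3.69. By fold enrichment the order differed in gHPRT, where the highest folds, 2.93 in replicate 1 and 2.82 in replicate 2, were inside the stretch. The widest peaks were weaker. Those of gCUX1 replicates 1 and 2 were chr5:31763409-31775869, inside the stretch, and chr5:42098821-42111400, and those of gHPRT replicates 1 and 2 were chr5:38735437-38752248 and chr5:16490128-16508807, with −log10 p values between 1.41 and 1.59. None of these strongest peaks was overlapped in all 3 other libraries, whereas 3 of the 4 widest were. An overlap of 1 bp counted, and a wider peak meets others more easily. The contrast therefore says nothing on which peaks are better reproduced.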

How the data were processed

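H3K9me2 CUT&RUN was measured in 2 gCUX1 and 2 gHPRT libraries of K562 cells. Per the submitters' processing notes, BWA 0.7.17, SAMtools 1.16.1, MACS2 2.1.0, deepTools 3.5.1 and hg19 were used. The sources used here give no settings, background library or depth. The deposited broad peak lists, 1 per library, hold the authors' fold enrichment (a ratio), −log10 p and −log10 q per peak. The deposited score is 10 times the −log10 p, rounded down, and was not used further. These values served to describe, rank and filter peaks within lists.

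From the lists, percent covered was computed for regions and for windows of 1 Mb and 100 kb. Windows with a mean of at least 1% on chromosomes 1 to 22 and X were fitted with limma 3.58.1 in R 4.3.3 (eBayes with trend, Benjamini-Hochberg adjustment, threshold 0.05). The fit was also run on simulated windows that gave all libraries the spread of the gHPRT pair. That run cannot show how the fit behaves with the wider spread of the gCUX1 pair. The rest used Python 3.11.15. Named were the 1-Mb windows past the threshold, up to 5 windows of 100 kb per direction with the largest difference and no overlap of groups, the strongest and widest peaks, and the 3 longest shared runs. Any further window was picked with its values in view.

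The alternatives were 1 limit on −log10 p or −log10 q, equal covered length, gaps filled, quantile normalization, moved borders, no filter, no trend, a replicate block and leaving out each library. The arm, the stretch and all lists were chosen with earlier results of these data known. The tip, the ratios to other chromosome parts, the 5-Mb bins and the serial numbers were chosen after the data were seen. No hg19 sequence or annotation was used, so no sequences are shown.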

Additional observations from a re-analysis of the deposited data

How the results depend on the processing

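Coverage in gCUX1 minus gHPRT depended on how the lists were read, and the cause was not tested. With 1 limit on −log10 p it was 0.118 points on the arm and 1.08 in the cadherin stretch, both turned in sign, and -0.255 in the rest. With 1 limit on −log10 q it was 2.27, 3.03 and 1.98 points, in the same order, and at equal covered length -5.10, -3.82 and -5.60. Leaving out 1 library at a time gave -17.8 to -9.26 points on the arm, -15.5 to -8.22 in the stretch and -18.7 to -9.66 in the rest. Median peak width stayed lower in gCUX1 under every setting run, by a difference of -954 to -278 bp in the stretch and -1044 to -388 bp in the rest with libraries left out, smallest without gCUX1 replicate 1. The group difference (gCUX1 minus gHPRT) in the log2 ratio of stretch to rest fell to 0.017 with borders moved outward, and was 0.04 to 0.14 with libraries left out. The group difference in the log2 ratio of the arm to other chromosome parts was -0.38 with the limit on −log10 p and -0.37 at equal covered length. It was -0.31 to -0.21 with libraries left out. The group difference in the log2 ratio of the first 5 Mb to the other arm was -0.82 with the limit on −log10 q, and -0.64 to -0.38 with libraries left out. Against 6 windows of 1 Mb past the limma threshold, 0 passed with the limit on −log10 p (2 at an unadjusted p under 0.05), with that on −log10 q (0), at equal covered length (24), without the filter (27) or without the trend (40), and 1 with quantile normalization; gaps filled gave 7, and leaving out 1 library 0 to 46. Against 1 window of 100 kb, 0 passed with the limit on −log10 p (22 unadjusted), with that on −log10 q (5), at equal covered length (53), with quantile normalization (56), without the filter (155) or without the trend (213), and leaving out 1 library gave 0 to 106. A fit that leaves a group with 1 library assumes that it varies like the other group, so counts from fits without a library are not listed here. The replicate block gave 8 windows of 1 Mb and 6 of 100 kb on the arm, against 220 and 168 called lower genome-wide. Equal replicate numbers are not said to pair samples, and deviations of same-numbered libraries correlated at 0.17 over all 1-Mb windows and -0.17 on the arm. For a library set against 1 given other library, a mean of 58.6% of its peaks on the arm overlapped by 1 bp, with pairs between 44.9% and 69.6%. The mean was 15.6%, with pairs between 10.9% and 20.2%, when at least 50% of both peaks had to overlap. The share overlapping a peak of any other library was not computed. With 2 libraries per group and unknown depth, differences smaller than those between the gCUX1 libraries were not resolved.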
